A study of Mus musculus with 11 samples.

Results

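AP-1 is a family of transcription factors that bind DNA as pairs of basic leucine zipper proteins. Transcripts of 7 of its genes, Fos, Fosb, Fosl2, Jun, Junb, Jund and Atf3, were followed in clonotype+ Treg cells from visceral adipose tissue (VAT) and from pooled spleen and lymph nodes (Spl/LN). The genes were chosen by symbol from the 52997 rows of the count table, with earlier results of these data known, and each had 1 row. All 7 passed the filter on low counts (a group mean over 10) and were among the 12932 genes tested.

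Fos proteins (Fos, Fosb and Fosl2) bind DNA as partners of Jun proteins (Jun, Junb and Jund), which can also pair with one another. Atf3 belongs to the related ATF group and pairs with Jun proteins as well. Many of these genes are immediate early genes, which are transcribed within minutes of T cell receptor signals, cytokines or cell stress without new protein synthesis, and whose mRNAs decay quickly. In Treg cells AP-1 acts beside Foxp3, NFAT and NF-κB, and the genes of the family are also known to be induced when cells are freed from tissue with enzymes.

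The libraries came from 1 design with 4 groups, and each held the RNA of 1000 cells sorted again after a first sort. The donor cells were CD45.2+ Treg cells of male vTreg53 Tg+ mice on the C57BL/6 background, which carry the T cell receptor of a single expanded Treg clone of VAT and, per the study's methods, a GFP gene knocked into Foxp3. Donor cells from the spleen and lymph nodes were put into CD45.1 B6 recipients, which were primed 6 weeks later in CFA and boosted 1 week after that in IFA, either with the peptide Fat1562, a surrogate agonist of this receptor, or with the adjuvants alone. Samples are labelled as 15 weeks of age, and the labels call the control mice unimmunized and name PBS, where the study's text describes adjuvant alone, the name kept here. There were 3 libraries of Spl/LN cells with adjuvant alone, 3 of Spl/LN cells with adjuvant/Fat1562, 2 of VAT cells with adjuvant alone and 3 of VAT cells with adjuvant/Fat1562.

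VAT was minced and digested with collagenase in a warm shaking bath before the sort, a step that is given for VAT and not for Spl/LN. Tissue and digestion therefore go together in every library, and in every comparison of VAT with Spl/LN they cannot be told apart. In such bulk libraries, fewer cells that express a gene and less RNA per cell cannot be told apart either.

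Total counts ran from 4490242 to 6570057 per library, with 19797 to 21991 genes detected. Foxp3, the factor that defines Treg cells, had normalized counts of 6747 to 10250 in the 11 libraries (counts over the TMM-scaled library size, brought to the mean library total of 5359948), and the 11 Treg and T cell markers summed to between 61100 and 90120. The 14 macrophage and dendritic cell markers summed to 70.8 to 161 and 112 to 147 in the Spl/LN groups with adjuvant alone and with adjuvant/Fat1562, and to 92.3 to 137 and 94.8 to 171 in the VAT groups in the same order, and Adgre1, Cd14, Fcgr1 and Clec9a were at 0 in both VAT libraries with adjuvant alone. Within that list Xcr1, a marker of cross-presenting dendritic cells, was called higher in VAT both with adjuvant alone (53.6 and 80.2 against 2.89 to 27.4 in Spl/LN, log2 fold change 2.28, edgeR adjusted p = 0.0104) and with adjuvant/Fat1562 (1.91, adjusted p = 0.0200). Itgam, a myeloid marker of the same list, was called lower in VAT with adjuvant alone (-3.14, edgeR adjusted p = 0.0351). Between the tissues of mice given Fat1562, Itgam was uncalled (-1.03, adjusted p = 0.297). Clec9a, Flt3 and Itgax, also listed, had 6 reads or fewer in every library. The 16 adipocyte and stromal markers summed to 505 to 596 over the Spl/LN libraries, to 276 to 321 in VAT with adjuvant alone, where Adipoq, Retn and Dcn were at 0, and to 454 to 647 in VAT with adjuvant/Fat1562. Most of each sum was Pecam1, at 461 to 566, at 293 and 234, and at 412 to 589 in the same order. The 10 CD8, NK and granulocyte markers summed to 238 to 351 in Spl/LN, to 256 to 288 in VAT with adjuvant alone and to 382 to 539 in VAT with adjuvant/Fat1562. Prf1 and Cd8b1 made up most of these sums, and Cd8a, Ncr1, S100a8 and S100a9 were at 6.39 or less in every library. The 8 B cell markers set 1 library apart, replicate 2 of VAT with adjuvant alone, with a sum of 28730 against 6128 in replicate 1, almost all of it Ighm (28547 and 6015). Without either of these libraries every call of an AP-1 member between tissues was kept.

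The positions of the genes are those of GENCODE vM21 (GRCm38). Fos lies at chr12:85473890-85477273 on the plus strand, Fosb at chr7:19302696-19310051 on the minus strand and Fosl2 at chr5:32135801-32157842 on the plus strand. Jun, a gene of 1 exon, lies at chr4:95049034-95052222 on the minus strand, Junb at chr8:84974484-84978718 on the minus strand, Jund, also of 1 exon, at chr8:70698949-70700616 on the plus strand, and Atf3 at chr1:191170296-191218039 on the minus strand. Fos, Fosb, Fosl2 and Atf3 share no exon with another gene. Exons of the opposite strand overlap those of Jun by 232 bases (Junos), of Junb by 173 bases (Prdx2) and of Jund by 877 bases (Gm11175), so that 6.19%, 6.24% and 49.4% of their 38-base stretches also occur in another annotated gene. The strand setting of the counting is not given in the sources used here, and reads from such overlaps cannot be told apart. Gm11175 had 0 counts in all 11 libraries, which does not show whether reads from its overlap were counted for Jund.

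Of the 7 members, Fos, Jun, Junb and Atf3 held a motif match in the windows of RefSeq start sites described below, and Fosb, Fosl2 and Jund held none. The stretches before the start sites of those 4 are shown, so that letters known from cAMP- and stress-responsive promoters can be looked for in them. Each is the 250 bases before the start site of RefSeq (GRCm38.p6), 5′ to 3′, which is chr12:85473640-85473889 on the plus strand for Fos, chr4:95052223-95052472 on the minus strand for Jun, chr8:84978749-84978998 on the minus strand for Junb and chr1:191183334-191183583 on the minus strand for Atf3. Capitals mark matches to 4 motifs searched on both strands, TGACGT, the AP-1/ATF form TGACNTCA, the AP-1 form TGANTCA and the TATA form TATAAA. A match of the second motif holds the first where its N is a G.
Fos: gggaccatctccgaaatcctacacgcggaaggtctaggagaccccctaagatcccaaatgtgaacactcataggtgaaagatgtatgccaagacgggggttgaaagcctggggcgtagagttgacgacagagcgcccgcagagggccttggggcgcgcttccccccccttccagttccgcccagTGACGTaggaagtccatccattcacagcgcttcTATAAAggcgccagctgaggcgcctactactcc
Jun: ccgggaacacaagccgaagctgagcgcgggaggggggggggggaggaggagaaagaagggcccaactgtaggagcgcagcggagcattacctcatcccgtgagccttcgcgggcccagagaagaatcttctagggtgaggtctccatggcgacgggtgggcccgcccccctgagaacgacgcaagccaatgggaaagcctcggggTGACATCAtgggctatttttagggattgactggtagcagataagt
Junb: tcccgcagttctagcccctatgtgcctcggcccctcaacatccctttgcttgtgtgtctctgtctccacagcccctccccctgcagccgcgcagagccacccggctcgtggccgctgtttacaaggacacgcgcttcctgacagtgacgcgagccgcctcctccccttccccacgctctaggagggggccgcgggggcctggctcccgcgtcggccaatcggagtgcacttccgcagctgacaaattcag
Atf3: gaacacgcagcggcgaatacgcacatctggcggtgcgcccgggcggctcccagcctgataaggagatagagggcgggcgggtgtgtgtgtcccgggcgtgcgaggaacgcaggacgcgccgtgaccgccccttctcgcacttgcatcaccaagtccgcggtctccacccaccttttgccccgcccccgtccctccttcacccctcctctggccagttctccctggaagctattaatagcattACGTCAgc
Counted from 0 at the start site, Fos holds TGACGT at -66 and TATAAA at -33, Jun holds TGACATCA at -45, and Atf3 holds ACGTCA, which is TGACGT on the other strand, at -8. Junb holds no match before its RefSeq start, and a TATAAA begins at position 0. That position lies upstream of the GENCODE start of Junb, 84978718 on the minus strand. Over the windows from 250 bases before to 50 after the start, which RefSeq gave for all 7 members, TGACGT was in 2 members and in 7.51% of 32851 windows of the same length, TGACNTCA in 1 member and 8.83% of windows, TATAAA in 2 members and 13.6% of windows, and TGANTCA in 0 members and 7.81% of windows. These are matches of letters in short windows and say nothing of factor binding. The Jund window, chr8:70697489-70697788, ends before the GENCODE start of Jund at 70698949. The lack of a match for Jund thus does not cover that start. Windows of Fosl2 and Atf3 lie within their genes as placed by GENCODE.

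In mice given adjuvant alone, all 7 genes were called higher in VAT than in Spl/LN Treg cells, with log2 fold changes from 2.35 for Jund to 6.33 for Fosb and Fosl2 and a larger ratio for Atf3. Called here and below means an adjusted p under 0.05 by edgeR's quasi-likelihood test with Benjamini-Hochberg adjustment over all tested genes. Of these, 9.09% were called higher in VAT in this comparison and 7.18% lower. Each VAT library stood above each Spl/LN library for all 7 genes, which was so for 20.9% of tested genes.

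Fos, the founding member, had normalized counts of 223, 124 and 125 in the 3 Spl/LN libraries with adjuvant alone and 7226 and 5316 in the VAT libraries. The lower VAT library thus stood far above all of Spl/LN, with 6271 ± 1350 (SD, n = 2) as the VAT mean against 157 ± 56.8 (SD, n = 3). This gave a log2 fold change of 5.32 (SE 0.25, edgeR adjusted p = 1.07e-10). Fosb, a Fos protein that also exists as a shortened splice form, had 18.3, 3.12 and 4.57 in Spl/LN and 828 and 595 in VAT. Spl/LN was near the floor for Fosb, with 3 to 19 reads per library, and the log2 fold change was 6.33 (SE 0.41, edgeR adjusted p = 4.58e-09).

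Fosl2, which encodes Fra-2, had 39.5, 34.4 and 63.9 in Spl/LN and 3673 and 3805 in VAT. The VAT libraries were close to each other, and the log2 fold change was 6.33 (SE 0.23, edgeR adjusted p = 3.99e-12). Among the Fos-type genes the fold changes of Fosb and Fosl2 lay next to each other, while their counts differed. On the FPKM scale, which allows for gene length and was computed here from the counts with all exon bases of a gene as its length, the mean levels in VAT were 497 for Fos, 72.1 for Fosl2 and 21.3 for Fosb.

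Junb, a Jun protein needed for several effector programmes of T cells, had 3463, 3428 and 3600 in Spl/LN and 42429 and 37987 in VAT. It was the most abundant member in every library and had the smallest spread between these Spl/LN libraries relative to its mean, 3497 ± 91.1 (SD, n = 3), with a log2 fold change of 3.52 (SE 0.08, edgeR adjusted p = 7.79e-15). Jun, the partner of Fos in the classical AP-1 pair, had 286, 214 and 231 in Spl/LN and 2078 and 1594 in VAT. Its log2 fold change was 2.91 (SE 0.37, edgeR adjusted p = 1.83e-05), and the groups were well apart.

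Jund, the Jun gene that resting cells are known to transcribe steadily, had 14.5, 22.9 and 35.6 in Spl/LN and 129 and 121 in VAT. It moved least of the 7, with a log2 fold change of 2.35 (SE 0.35, edgeR adjusted p = 1.06e-04). Atf3, a stress-induced factor that often acts as a repressor, had 1 read in the 3 Spl/LN libraries together and 684 in the 2 VAT libraries. Its normalized counts were 0.96, 0 and 0 in Spl/LN and 535 and 238 in VAT, and the ratio of the groups was 1227 (exact 95% interval 219 to 48520, for counting error alone; edgeR adjusted p = 1.90e-07).

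**Figure D1:**
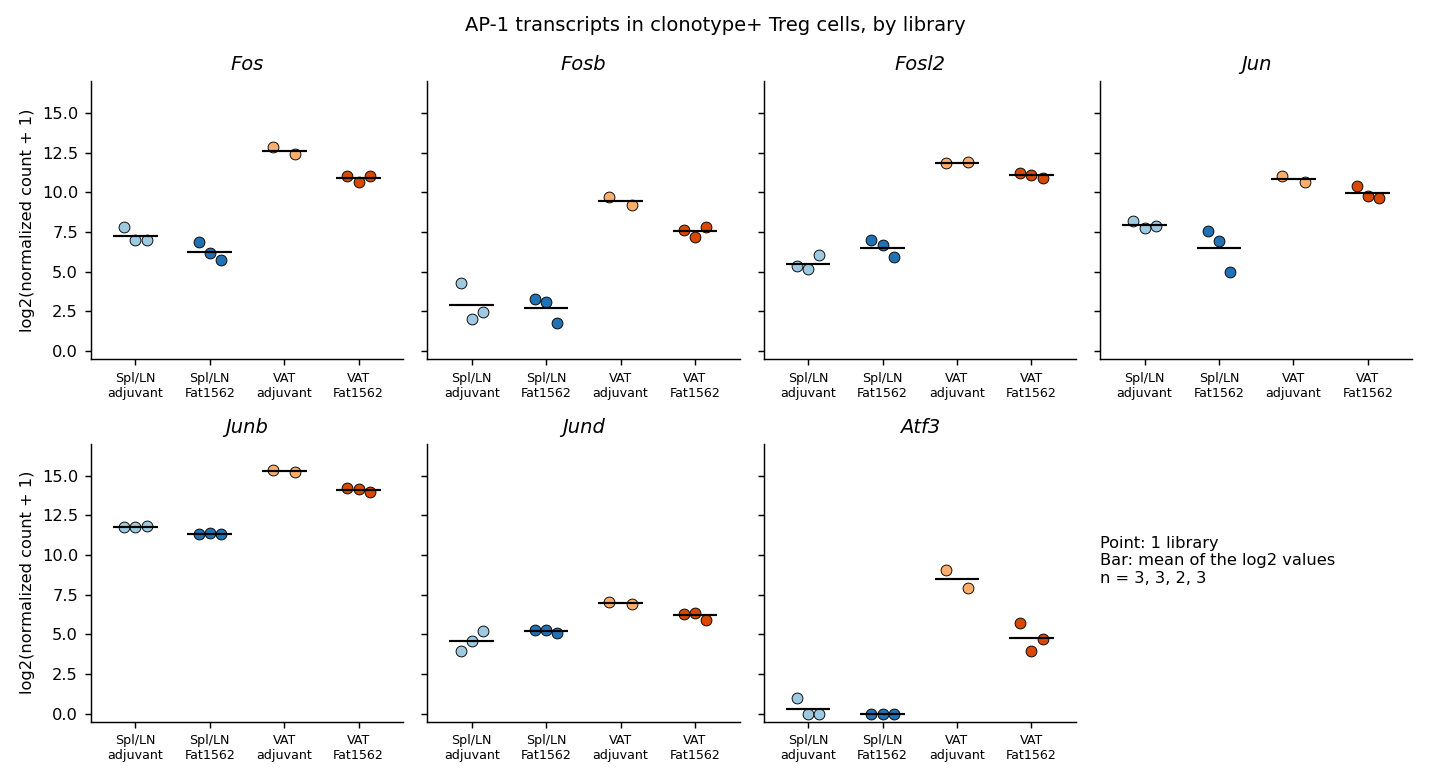
Normalized counts of the 7 AP-1 members in each library as log2(normalized count + 1), with a panel per gene and a column per group (n = 3, 3, 2, 3). Points are libraries and bars are means of the log2 values. For every gene all VAT points lie above all Spl/LN points, and Atf3 lies at or near 0 in Spl/LN.

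In mice given adjuvant/Fat1562, all 7 genes were again called higher in VAT, where 8.26% of tested genes were called higher and 6.73% lower. Every VAT library lay above every Spl/LN library for all 7 genes, as for 18.8% of tested genes. This comparison shares no library with the one above, and its log2 fold changes were 4.60 for Fos, 4.96 for Fosb, 4.54 for Fosl2, 3.17 for Jun and 2.78 for Junb (SE 0.07 to 0.42, edgeR adjusted p of 8.40e-06 or lower).

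Fos had 116, 71.6 and 52.0 in Spl/LN and 2115, 1619 and 2050 in VAT with adjuvant/Fat1562. The VAT libraries of these mice were closely grouped for Fos, 1928 ± 270 (SD, n = 3), below those with adjuvant alone. Atf3 had 0 reads in all 3 Spl/LN libraries and 45, 14 and 28 reads in the VAT libraries. Set against a floor of 3 counts per Spl/LN library, the mean of Atf3 in VAT was 10.7-fold higher. That ratio leaves out the spread between the VAT libraries. Between the tissues Atf3 was called higher in VAT (edgeR adjusted p = 1.13e-04).

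Jund had 37.2, 37.4 and 32.8 in Spl/LN and 77.5, 81.4 and 60.2 in VAT with adjuvant/Fat1562, a log2 fold change of 1.03 (SE 0.31, edgeR adjusted p = 0.034). The groups did not overlap, but this call was the least secure between tissues. It was lost with no filter on low counts, with quantile normalization, without any 1 of the 3 Spl/LN libraries of these mice and without replicate 1 or 2 of VAT, with log2 fold changes of 0.94 to 1.06 and adjusted p of 0.067 to 0.126 (0.0113 to 0.126 over all 21 alternatives).

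**Figure D2:**
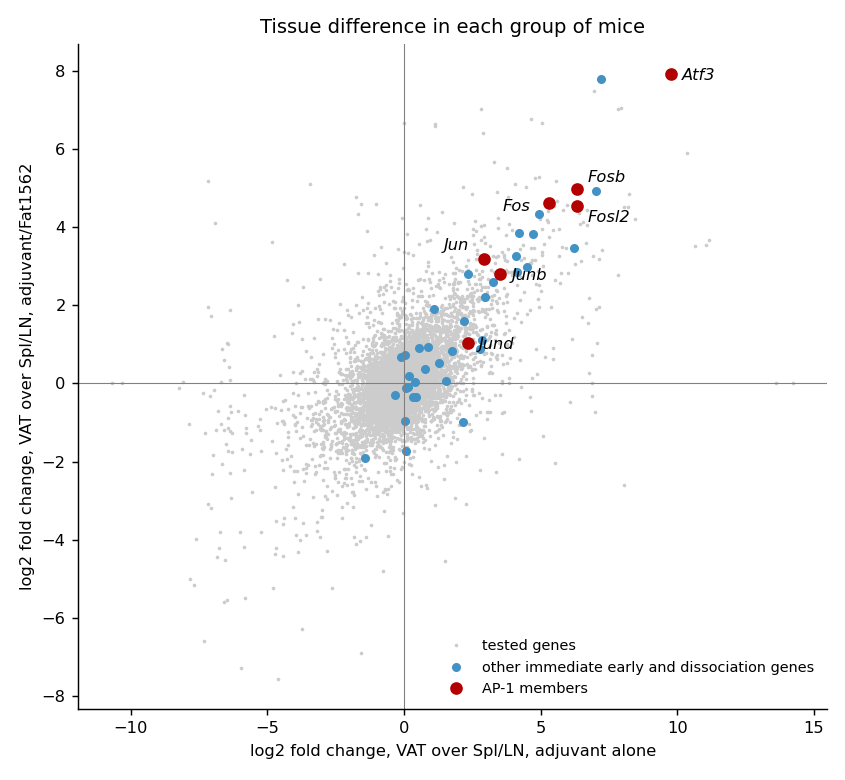
log2 fold change of VAT over Spl/LN Treg cells in mice given adjuvant alone (x axis) and adjuvant/Fat1562 (y axis) for the 12932 tested genes (grey), 35 tested genes of a list of other immediate early and dissociation genes (blue) and the 7 AP-1 members (red). All 7 members lie above 0 on both axes, with Jund nearest to the origin. The fitted values of Atf3 depend on the prior count and are no bound.

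Between the groups of mice in VAT, AP-1 transcripts were lower after adjuvant/Fat1562. Fos, Fosb, Fosl2, Junb and Atf3 were called lower, 5 of 7 members, where 3.97% of tested genes were called lower and 4.33% higher. Every library with adjuvant/Fat1562 was below both libraries with adjuvant alone for all 7 genes, as for 20.0% of tested genes. Both groups were digested with collagenase, and whether the handling of these mice differed in any other way is not given in the sources used here. With 2 libraries in one group, the spread was taken from the fit of all 4 groups.

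Other measures moved between the same VAT groups. The mitochondrial share of counts was 1.09% to 1.18% with adjuvant alone and 0.856% to 0.982% with adjuvant/Fat1562, and the 30 most abundant genes took 13.6% to 14.0% and 12.0% to 12.2% of counts. The adipocyte and stromal sum and the CD8, NK and granulocyte sum were both higher with Fat1562, without overlap. The first was mostly Pecam1, at 293 and 234 with adjuvant alone and 412 to 589 with Fat1562. The second was mostly Prf1 (77.0 and 86.1, then 244 to 423) and Cd8b1 (171 and 193, then 91.6 to 137). Of the tested genes of these sums, the endothelial marker Pecam1 (1.00, edgeR adjusted p = 0.00111) and the perforin gene Prf1 (2.03, adjusted p = 5.34e-04) were called higher. Pecam1 was at 461 to 566 in Spl/LN as well. Cdh5 and Kdr, endothelial genes of the same list, had 7 reads or fewer in every library and were not tested. The myeloid marker Itgam was also called higher (3.23, adjusted p = 0.0498), at 0 and 6.24 against 59.6, 12.2 and 15.5. Lyz2 of its list had an uncalled estimate of -2.24, and the macrophage and dendritic cell sums overlapped. Of the B cell markers Ighm was called lower (-1.19, adjusted p = 0.0415). Its values were 6015 and 28547 against 6330, 7826 and 8486, so this call rests on replicate 2 of adjuvant alone. Ighd went the other way, uncalled (1.31, adjusted p = 0.0642). These genes were named after their values were seen. The part of any of these measures in the AP-1 values was not tested.

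Atf3 fell furthest, from 535 and 238 to 50.6, 14.2 and 25.5, a log2 fold change of -3.69 (SE 0.45, edgeR adjusted p = 9.21e-05). Its 2 libraries with adjuvant alone lay further apart, relative to their mean, than those of any other member, with an SD of 209.5 around a mean of 386. Fosb fell from 828 and 595 to 198, 146 and 222 (-1.92, SE 0.30, edgeR adjusted p = 5.88e-04). Fos fell from 7226 and 5316 to between 1619 and 2115 (-1.70, SE 0.22, edgeR adjusted p = 7.95e-05). Fos and Fosb in VAT after Fat1562 were still above every Spl/LN library.

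Junb fell from 42429 and 37987 to 18611, 18574 and 16290, a log2 fold change of -1.17 (SE 0.08, edgeR adjusted p = 4.80e-08). Its estimate had the smallest standard error, and the fall was called under all 21 alternatives. Fosl2 fell from 3673 and 3805 to 2415, 2202 and 1925 (-0.78, SE 0.18, edgeR adjusted p = 0.0118). The Fosl2 call was lost with DESeq2 (adjusted p = 0.099), with quantile normalization (0.140) and without replicate 1 (0.0653) or replicate 2 (0.0918) of VAT with adjuvant alone, within a range of 1.25e-08 to 0.140 over its 21 alternatives.

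Jun and Jund did not pass the test in VAT. Jun had 2078 and 1594 with adjuvant alone and 1360, 854 and 800 with adjuvant/Fat1562, a log2 fold change of -0.87 (SE 0.35, edgeR adjusted p = 0.147), and passed it under 4 of 21 alternatives, among them the fit without replicate 3 of Spl/LN with adjuvant/Fat1562 (0.0174), a library in which Jun was at 31.2. Jund had 129 and 121 against 77.5, 81.4 and 60.2 (-0.78, SE 0.33, edgeR adjusted p = 0.175) and passed under 0 of 21.

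In Spl/LN, the same comparison called fewer of the 7 genes, and not all one way. Here 2.58% of tested genes were called higher and 1.40% lower with adjuvant/Fat1562. Fos and Junb were called lower and Fosl2 higher, and Fosb, Jun, Jund and Atf3 were not called. Every Fat1562 library was below every adjuvant library for Fos, Jun and Junb, 3 of 7 members, as for 9.84% of tested genes.

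Junb had 3463, 3428 and 3600 with adjuvant alone and 2517, 2657 and 2587 with adjuvant/Fat1562 in Spl/LN, a log2 fold change of -0.43 (SE 0.07, edgeR adjusted p = 0.00128). This small fall was several times its standard error, and it was called under all 21 alternatives. Fos fell from 223, 124 and 125 to 116, 71.6 and 52.0 (-0.99, SE 0.26, edgeR adjusted p = 0.0457). The highest Fos library with Fat1562 and the lowest with adjuvant alone almost met, at 116 and 124. The Fos call was lost under 9 of 21 alternatives (adjusted p of 3.26e-11 to 0.181 over all 21), namely DESeq2, limma voom, a fit of only these groups, and without replicate 1 of adjuvant alone (log2 fold change -0.65, adjusted p = 0.164), replicate 2 or 3 of adjuvant/Fat1562 (-0.93 and -0.74, adjusted p = 0.177 and 0.181) or any 1 VAT library with adjuvant/Fat1562 (-0.99, adjusted p = 0.0534 to 0.0548).

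Fosl2 moved the other way in Spl/LN, from 39.5, 34.4 and 63.9 to 124, 100.5 and 59.2, a log2 fold change of 1.01 (SE 0.25, edgeR adjusted p = 0.0291). The groups overlapped, since replicate 3 of adjuvant/Fat1562 (59.2) lay below replicate 3 of adjuvant alone (63.9). The Fosl2 call was lost under 6 of 21 alternatives (log2 fold change 0.75 to 1.02, adjusted p of 0.0831 to 0.151), which were limma voom, a fit of only these groups, and leaving out replicate 1 or 2 of adjuvant alone (0.0831 and 0.0919) or replicate 1 or 2 of adjuvant/Fat1562 (0.143 and 0.114).

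Jun had 286, 214 and 231 with adjuvant alone and 187, 122 and 31.2 with adjuvant/Fat1562 in Spl/LN (-1.13, SE 0.37, edgeR adjusted p = 0.103). The last of these libraries, replicate 3, had 39 reads of Jun in a total of 6570057, the deepest library. Without replicate 1 of adjuvant/Fat1562 Jun was called (-1.73, adjusted p = 0.0221), as under 3 of its 21 alternatives in all (adjusted p from 3.10e-12, with no filter on low counts, to 0.257). Fosb had 3 to 19 reads in every Spl/LN library (-0.55, SE 0.61, edgeR adjusted p = 0.695), and without replicate 1 of adjuvant alone, which had 19, its estimate was 0.59 (adjusted p = 0.663). Jund had 14.5, 22.9 and 35.6 against 37.2, 37.4 and 32.8 (0.55, SE 0.33, edgeR adjusted p = 0.410). For Atf3, with 1 read in 6 Spl/LN libraries, a difference was not detectable at this depth.

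**Figure D3:**
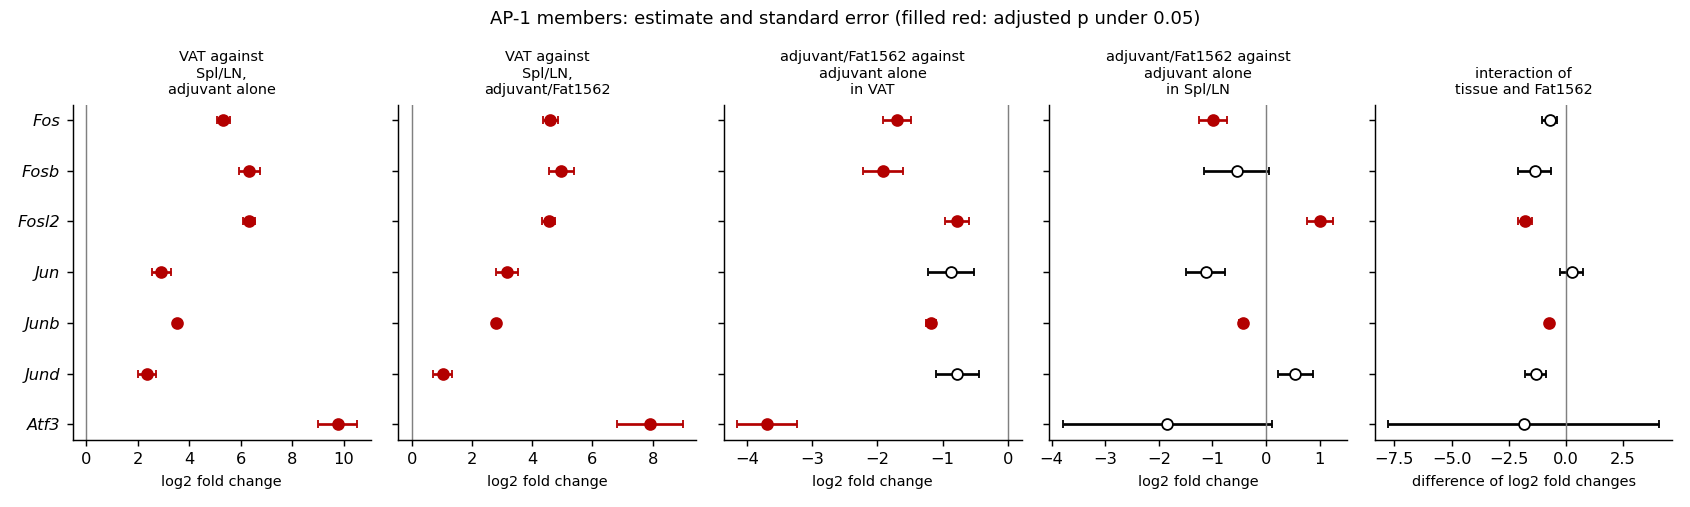
Estimates (points) and standard errors (bars) of the 7 AP-1 members on the log2 scale in 5 comparisons, each with its own x axis. Filled red points passed the adjusted p threshold of 0.05. All 7 are red and above 0 in both comparisons of VAT with Spl/LN, 5 of 7 are red and below 0 in VAT after Fat1562, and Fosl2 is above 0 in Spl/LN. The fitted values of Atf3 against groups at or near 0 reads depend on the prior count and are no bound.

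Whether Fat1562 moved these genes unequally in VAT and Spl/LN was tested as the interaction, the log2 fold change in VAT minus that in Spl/LN, for which 1.70% of tested genes were called higher and 2.02% lower. Fosl2 (-1.79, SE 0.31, edgeR adjusted p = 0.00306) and Junb (-0.74, SE 0.10, edgeR adjusted p = 5.22e-04) were called, both lower. Fosl2 thus fell in VAT and rose in Spl/LN, while Junb fell in both and more in VAT. The Fosl2 interaction was called under all 20 alternatives, and that of Junb was lost with quantile normalization (-0.26, adjusted p = 0.196, the highest over its 20 alternatives).

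For the other 5 members the interaction was not called. The estimates were -0.71 for Fos (SE 0.35, edgeR adjusted p = 0.309; called with no filter on low counts, -0.72, adjusted p = 0.00425, within 0.00425 to 0.718 over its 20 alternatives), -1.37 for Fosb (SE 0.71, adjusted p = 0.348), 0.26 for Jun (SE 0.51, adjusted p = 0.865) and -1.32 for Jund (SE 0.47, adjusted p = 0.139). Jund was called without replicate 3 of Spl/LN with adjuvant alone (-1.72, adjusted p = 0.0310, within 0.0310 to 0.314 over its 20 alternatives). For Jun the sign turned without replicate 3 of Spl/LN with adjuvant/Fat1562 (-0.22) or replicate 1 of VAT with adjuvant/Fat1562 (-0.02). Atf3 had too few reads in Spl/LN to bear on the question (SE 5.92). So a fall in VAT that was called and one in Spl/LN that was not, as for Fosb, was not shown to differ between the tissues.

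Ordered by their group means, Fos, Fosb, Jun, Junb and Atf3 ran from Spl/LN with adjuvant/Fat1562, through Spl/LN with adjuvant alone and VAT with adjuvant/Fat1562, to VAT with adjuvant alone. For Fosl2 and Jund the Spl/LN groups stood in the other order. Neighbours in the order overlapped in their libraries only between the Spl/LN groups, for Fosb, Fosl2, Jund and Atf3.

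The make-up of the family was compared on the same FPKM scale. The summed level of the 7 genes was 304 to 321 in Spl/LN with adjuvant alone, 221 to 235 in Spl/LN with adjuvant/Fat1562, 3720 to 4291 in VAT with adjuvant alone and 1583 to 1822 in VAT with adjuvant/Fat1562. Their reads were 0.0747% to 0.0805%, 0.0526% to 0.0575%, 0.887% to 0.992% and 0.394% to 0.443% of all counts in the same order. The 4 groups did not overlap in either measure.

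Junb made up 88.2% to 95.1% of the summed level in Spl/LN and 80.2% to 86.5% in VAT. The Fos-type genes Fos, Fosb and Fosl2 together made up 2.42% to 5.97% in Spl/LN and 10.1% to 15.6% in VAT, with no overlap. Fos alone was 1.87% to 5.55% of the sum in Spl/LN and 7.37% to 13.4% in VAT. Jun made up 0.828% to 5.27% in Spl/LN and 2.51% to 4.37% in VAT, so its share overlapped between the tissues. Jund was 0.509% to 1.80% in Spl/LN and 0.336% to 0.523% in VAT, and its level is the one most exposed to the overlap with Gm11175. With the longest transcript in place of all exon bases as the length, 9 of 28 shares moved by more than the SD between libraries, none of them of Junb or Fos.

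**Figure D4:**
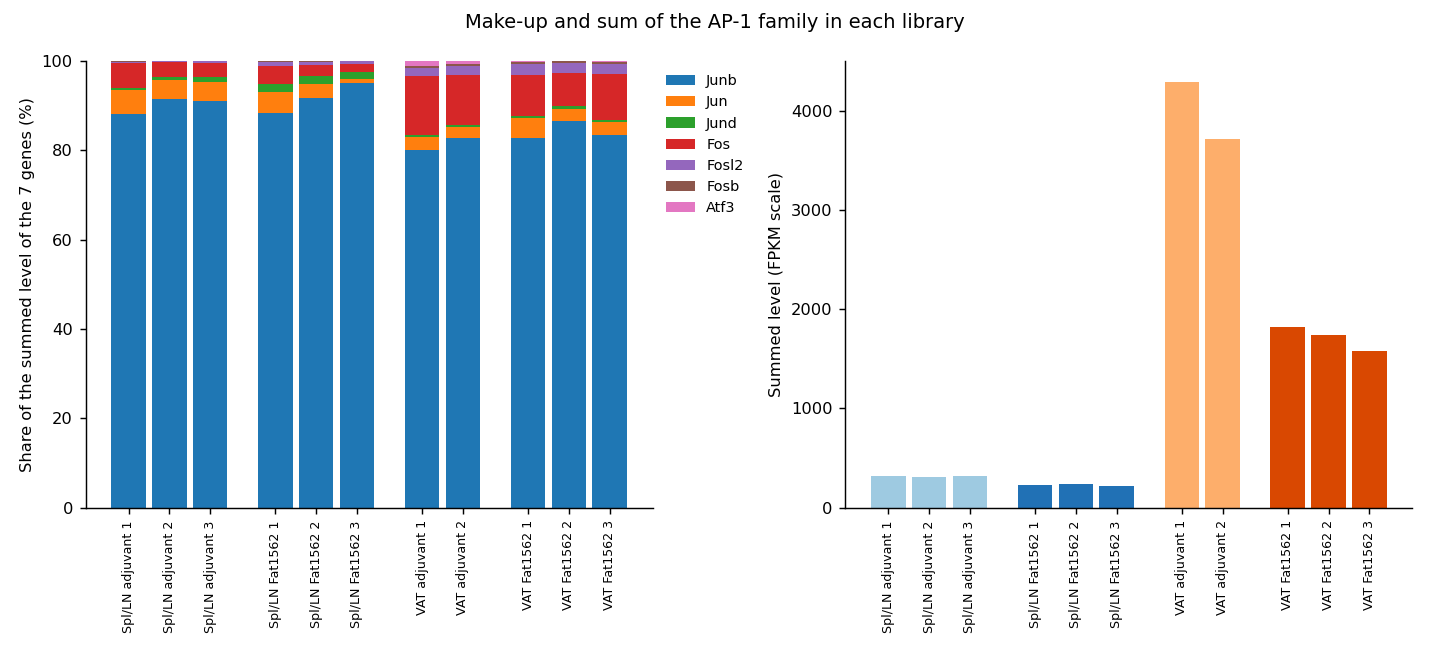
Left, share in percent of each of the 7 AP-1 members in their summed level (FPKM scale) in each of 11 libraries, stacked to 100%. Right, the summed level itself in the same libraries. Junb takes 80.2% or more of every bar on the left, Fos-type shares are wider in VAT, and the bars on the right run from 221 in Spl/LN to 4291 in VAT.

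Other basic leucine zipper genes were called less often than the 7 members. Of a list of 20 further AP-1 and partner genes, 17 were tested, and in the comparison of VAT with Spl/LN 5 were called higher and 0 lower with adjuvant alone, and 3 higher and 1 lower with adjuvant/Fat1562. Over all tested genes, 9.09% were called higher and 7.18% lower with adjuvant alone, and 8.26% and 6.73% with adjuvant/Fat1562. The shares were 4.33% and 3.97% for Fat1562 in VAT, 2.58% and 1.40% for Fat1562 in Spl/LN, and 1.70% and 2.02% for the interaction. They stand beside the counts of this list and of those below. The median log2 fold change of the list was 0.314 and 0.154, beside -0.0295 and -0.0053 for all tested genes. Crem, a cAMP-responsive factor whose short form represses cAMP targets, moved most, from 235 to 253 in Spl/LN to 2197 and 2326 in VAT with adjuvant alone (3.21, SE 0.13, edgeR adjusted p = 1.22e-11). With adjuvant/Fat1562 it ran from 452 to 556 in Spl/LN and from 1934 to 2542 in VAT (2.14). Jdp2, a partner of Jun that represses AP-1 sites (2.85), Atf4 of the integrated stress response (0.89) and the small Maf gene Mafg (0.83) were called with adjuvant alone, and Atf4 (0.71), Batf (0.41) and Atf7 (-0.50) with adjuvant/Fat1562. Jdp2 was near the floor with adjuvant alone, with 1, 2 and 9 reads in Spl/LN and 19 and 29 in VAT (SE 0.84).

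Batf, which pairs with Jun proteins at sites shared with IRF4 and is needed for tissue Treg cells, was called higher after Fat1562 in both tissues. It rose in VAT from 1362 and 1376 to 2732, 2443 and 2101 (0.82, SE 0.11, edgeR adjusted p = 1.65e-04), where its partner Junb fell. It also rose in Spl/LN, from 1294 to 1520 up to 1735 to 1926 (0.38, SE 0.10, edgeR adjusted p = 0.0437). Its interaction was not called (0.45, adjusted p = 0.122), and with adjuvant alone it did not pass the test between tissues (-0.04, adjusted p = 0.872). Fosl1, which encodes Fra-1, had at most 33.6 normalized counts in any library and was not called in any of the 5 comparisons, and 53.8% of its 38-base stretches also occur in another annotated gene, Ccdc85b in the main.

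After Fat1562 in VAT, 1 of the 17 tested genes of that list was called higher (Batf) and 1 lower (Atf7, -0.77). Of all tested genes 4.33% were called higher there and 3.97% lower. The list median was -0.155 beside 0.00787 for all tested genes. In Spl/LN 3 of 17 were higher, Crem (1.09, edgeR adjusted p = 4.70e-05), Batf and Maf (0.36, adjusted p = 0.0446), and 0 lower. The shares of all tested genes were 2.58% and 1.40%. The interaction was called lower for 2 of 17, Crem (-1.07) and Atf7 (-0.90), beside 2.02% of tested genes.

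Genes that carry signals to AP-1 moved in both directions. Of 22 MAP kinase and SRF genes, all tested, 5 were called higher and 4 lower in VAT with adjuvant alone, and 3 higher and 2 lower with adjuvant/Fat1562. Of all tested genes, 9.09% and 7.18% were called so with adjuvant alone, and 8.26% and 6.73% with adjuvant/Fat1562. Map3k8, the kinase that links NF-κB signals to ERK, was at 92.7 to 145 in Spl/LN and 418 and 558 in VAT (2.03, SE 0.22, edgeR adjusted p = 4.05e-06). Map2k3, an activator of p38 (1.11), and Srf, the serum response factor that acts on the promoters of immediate early genes (0.95), were also higher. With adjuvant/Fat1562 the tissue difference was 1.42 for Map3k8, 1.16 for the ternary complex factor Elk3 and 0.92 for Map2k3.

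After Fat1562 in VAT, 1 of these 22 was called higher and 4 lower, beside 4.33% and 3.97% of all tested genes. Among those lower were Rasgrp1, an activator of Ras downstream of the T cell receptor (-0.69), and Map3k5 (-0.66). In Spl/LN Map2k3 was the 1 gene called, higher by 0.50 on the log2 scale, and in the interaction 1 was called higher and 0 lower. The list medians were 0.0965, -0.05, -0.0174, -0.00398 and -0.0849 in the 5 comparisons, all close to 0.

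Feedback genes of the MAP kinases include phosphatases that switch these kinases off (the Dusp genes) and inhibitors of the Sprouty and Spred families. Of 11 such genes 10 were tested, and 5 were called higher and 1 lower in VAT with adjuvant alone, and 6 higher and 0 lower with adjuvant/Fat1562 (medians 1.01 and 1.36). Dusp1, which acts on JNK and p38 and is itself an immediate early gene, was at 1430 to 1902 in Spl/LN and 26950 and 34180 in VAT (4.19, SE 0.15, edgeR adjusted p = 3.07e-12). Dusp10 (2.85), Dusp5 (2.53) and Dusp4 (2.33) followed it with adjuvant alone, and with adjuvant/Fat1562 the values were 3.85 for Dusp1, 2.84 for Dusp4, 1.79 for Dusp16 and 1.51 for Dusp5.

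After Fat1562 in VAT, 4 feedback genes were called lower and 2 higher. Dusp1 fell to between 10840 and 14890 (-1.28, SE 0.14, edgeR adjusted p = 1.21e-05), and Dusp6 (-1.98) and Dusp10 (-1.36) fell too. Dusp16 rose from 11.2 and 32.5 to 129 to 160 (2.73, SE 0.45, edgeR adjusted p = 8.70e-04). In Spl/LN Dusp1 was the 1 gene called (-0.93), and in the interaction Dusp10 (-1.46) and Dusp5 (-1.01) were lower and Dusp2 higher (1.44). The list medians were 0.0109 in VAT, -0.219 in Spl/LN and 0.5 for the interaction.

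Immediate early and dissociation genes outside AP-1 were higher in VAT in most cases. The list held 37 genes, written from those known to be induced by stimulation or by enzymatic dissociation of tissue, and 35 were tested. With adjuvant alone 21 were called higher and 1 lower (median 1.53), and with adjuvant/Fat1562 22 higher and 3 lower (median 0.889). Klf4 was at 0 to 3.12 in Spl/LN and at 121 and 204 in VAT with adjuvant alone. Nr4a2, an orphan nuclear receptor induced by T cell receptor signals, was at 1.83 to 25.0 and at 1200 and 1355 (7.01, SE 0.38, edgeR adjusted p = 4.92e-10), and Ppp1r15a, which reverses the arrest of translation under stress, at 157 to 264 and at 6735 and 7285 (4.94). Ier3 was at 0 to 5.79 in Spl/LN and at 150 and 160 in VAT (6.23).

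The same list was lower in VAT after Fat1562, with 0 of 35 called higher and 15 lower (median -0.558), against 4 higher and 5 lower in Spl/LN (median 0.169). The genes with the largest falls in VAT were Klf4 (-2.56), Egr1 (-2.23), Btg2 (-1.67) and Zfp36 (-1.63). Egr1, a zinc finger factor induced by ERK, had 1657 and 2417 with adjuvant alone and 416, 342 and 541 with adjuvant/Fat1562 in VAT, whereas in Spl/LN it had 342 to 530 and then 739 to 932 (0.92, edgeR adjusted p = 0.00782). Its interaction was -3.15 (SE 0.27, edgeR adjusted p = 8.59e-06), and in all 2 genes of the list were called higher and 10 lower there (median -0.666 beside 0.0109 for all tested genes), with Nr4a2 (-2.11), Btg2 (-1.88) and Klf2 (-1.79) next. In Spl/LN Dnajb1 (0.99) was higher, and Socs3 (-0.93) and Dusp1 (-0.93), which is on this list as well, were lower.

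The Egr1 values set that gene apart from the 7 members, none of which was lower in VAT than in Spl/LN after Fat1562, as Egr1 was at 342 to 541 against 739 to 932. The heat shock gene Hspa1a, a member of the list named after its values were seen, was at 661 in replicate 1 of VAT with adjuvant/Fat1562 and at 130 and 77.5 in the other two. It was at 40.1 and 89.8 in VAT with adjuvant alone and at 0 to 79.1 in Spl/LN. In VAT after Fat1562 its estimate was 2.16 (SE 0.86, edgeR adjusted p = 0.150), above 0, where those of the 7 members were below it. Replicate 1 also had the highest Fos, Fosl2, Jun, Junb and Atf3 of its group. The part of dissociation in the AP-1 values was not tested.

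**Figure D5:**
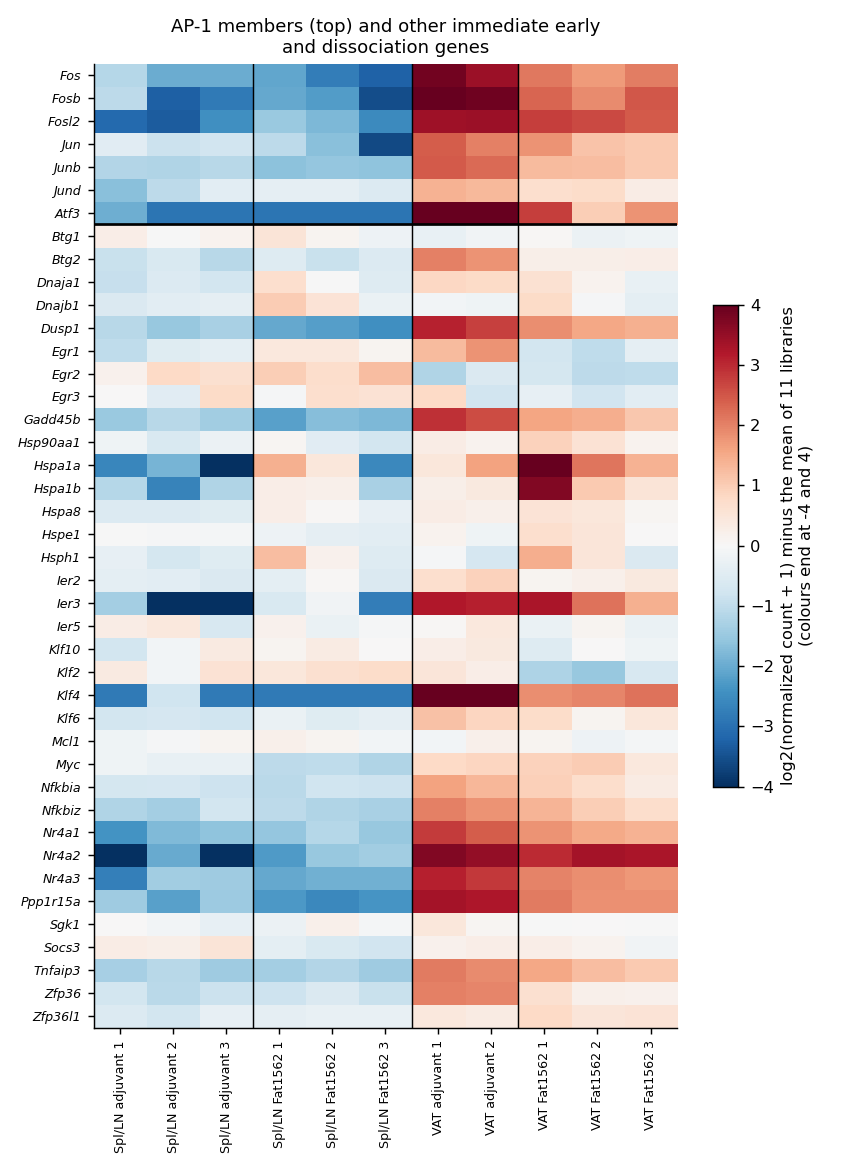
Each row is a gene and each column a library, and the colour is log2(normalized count + 1) minus the mean of the row over the 11 libraries, cut off at -4 and 4. The 7 AP-1 members stand above the line and 35 other immediate early and dissociation genes below it. The members, Dusp1, Nr4a1, Nr4a2, Nr4a3 and Ppp1r15a are red in all 5 VAT libraries, the members paler with Fat1562, Egr2 is blue in all 5, and Hspa1a is darkest in replicate 1 of VAT with adjuvant/Fat1562.

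Of 20 genes reported elsewhere as AP-1 targets 13 were tested, and 9 were called higher and 0 lower in VAT with adjuvant alone, and 7 higher and 1 lower with adjuvant/Fat1562 (medians 1.86 and 0.659). Il10, the suppressive cytokine, was at 8.22 to 17.4 in Spl/LN and 1048 and 1234 in VAT with adjuvant alone (6.45, SE 0.37, edgeR adjusted p = 1.00e-09). Areg, the tissue repair factor amphiregulin, was at 110 to 122 and at 6281 and 8381 (5.96), the polyamine enzyme gene Odc1 was higher by 3.07, and Cd69, an early activation marker that keeps cells in tissue, by 2.52. With adjuvant/Fat1562 the values were 4.56 for Areg, 4.08 for Il10, 2.66 for Lif and 2.66 for Odc1.

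After Fat1562 in VAT 6 of these 13 were called lower and 1 higher (median -0.32). Cd69 fell from 6462 and 4967 to 1979, 1425 and 1546 (-1.79, SE 0.13, edgeR adjusted p = 1.90e-07), Mmp9 fell from 366 and 388 to 27.5 to 89.3 (-2.85), and Tnf (-1.45) and Areg (-1.14) fell too. In Spl/LN 1 was called, Tnf (-0.93), and 0 were higher (median 0.141). The interaction was called lower for 5 and higher for 0 (median -0.411), with -3.35 for Mmp9, -2.37 for Il10, -1.89 for Cd69 and -1.40 for Areg. Such genes answer to many factors, and no binding was measured here.

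The genes whose pattern lay nearest to each member were found by Pearson's r of log2(normalized count + 1) over the 11 libraries, among all tested genes. These are descriptions with no test, since all points share the split between VAT and Spl/LN and come from the same libraries. Nearest to Fos were Dusp1 (0.995), Ppp1r15a (0.991) and Dennd4a (0.988), and nearest to Junb were Gadd45b (0.997), Ppp1r15a (0.995) and Dusp1 (0.994). Fosl2 lay nearest to the kinase gene Sik1 (0.997), Dgat1 (0.994) and Fam46a (0.991), and Fosb to Pim3 (0.978), Ppp1r15a (0.976) and Ifrd1 (0.976).

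Fos, Fosb and Junb shared Ppp1r15a among their neighbours, while Fosl2, Jun, Jund and Atf3 shared none with another member. Jun lay nearest to Dkk3 (0.981), Rgcc (0.963) and Jmy (0.962), and Dkk3, like Jun, was low in Spl/LN with Fat1562, at 16.0 to 50.5 against 78.1 to 99.5. Jund lay nearest to Gm12940 (0.976), Jak2 (0.973) and Mapkapk3 (0.971), and Atf3 to Ctla2a (0.986), Aff4 (0.982) and Pim1 (0.981). Among the members themselves r ran from 0.746 between Jun and Jund to 0.988 between Fos and Junb. By the mean r over the 7 members the first 8 genes were Nfkbiz (0.959), Dennd4a, Ppp1r15a, Tnfaip3, Dusp1, Pim3, Dgat1 and Phlda1 (0.949). Tnfaip3, an inhibitor of NF-κB signaling, ran from 748 to 932 in Spl/LN and was at 7446 and 8528 in VAT with adjuvant alone and 4160 to 5926 with adjuvant/Fat1562.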

How the data were processed

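The authors deposited 1 table of counts, whole numbers per gene symbol without normalization, from paired reads of 38 bases of Smart-seq2 libraries, which amplify cDNA by PCR and carry no molecular identifiers. The submitters' processing notes name STAR 2.5.4, featureCounts and mm10. The study's methods name Cuffquant and a filter of normalized reads, which are not in this table. All 11 columns were matched to samples by their labels. Counts were scaled by TMM and tested in 1 fit of the 4 groups with edgeR 4.0.16 (R 4.3.3), with a quasi-likelihood test, a prior count of 0.125 for fold changes and the filter of a mean above 10. The common biological coefficient of variation was 19.1%. The variance between library pairs of a group was 5.45 to 11.6 times that of counting error (chi-square over degrees of freedom). Standard errors are the log2 fold change over the root of F. p-values measure the spread between these libraries, since no source ties each to its own mouse, and intervals cover counting error alone. The members and gene lists were chosen with earlier results of these data known. Named were all 7 members, Fosl1, Batf and, per list and comparison, up to 4 called genes with the largest change. A few genes that this rule would name are not reported here. The steps were tested on simulated data. Alternatives were run with limma 3.58.1, DESeq2 1.42.0, other filters and scalings, a replicate block and each library left out.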

Additional observations from a re-analysis of the deposited data

Results flagged for a closer look

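For 2 members Fat1562 moved the level unequally in VAT and Spl/LN by the test of the difference itself. For Fosl2 the interaction was -1.79 on the log2 scale (SE 0.31, edgeR adjusted p = 0.00306), with a fall in all 3 VAT libraries and higher values in 2 of 3 Spl/LN libraries than in any with adjuvant alone. For Junb it was -0.739 (SE 0.10, edgeR adjusted p = 5.22e-04), with lower values in all 3 libraries of each tissue after Fat1562. Spl/LN levels of Fosl2 rest on 33 to 130 reads per library.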

How the results depend on the processing

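Of 35 results for single members 24 were called, and 19 of these were called under every alternative that gave a value, among them 13 of 14 between tissues. The others were Jund between tissues with adjuvant/Fat1562, Fosl2 in VAT, Fos and Fosl2 in Spl/LN, and the Junb interaction, all given with their values in the report, and 0 called results reversed. Among 11 uncalled results 4 were called under some alternative, and 2 reversed, Fosb in Spl/LN without replicate 1 of adjuvant alone (0.59, lowest -0.92 without replicate 2), and the Jun interaction without replicate 3 of Spl/LN with adjuvant/Fat1562 (-0.22) or replicate 1 of VAT with adjuvant/Fat1562 (-0.02, highest 0.86 without replicate 1 of Spl/LN with adjuvant/Fat1562). The count of called genes rose from 515 to 793 in Spl/LN, both with no filter and with DESeq2, and from 481 to 783 for the interaction with DESeq2. Without 1 library the counts ran from 1259 to 2114 and from 1289 to 2378 between tissues (2103 and 1938 with all), from 508 to 1394 in VAT (1074), from 190 to 502 in Spl/LN (515) and from 240 to 576 for the interaction, and a library left alone in its group was taken to vary like the others. The lowest counts came without replicate 1 of VAT with adjuvant alone (1259 and 240), replicate 2 of that group (508), replicate 2 of VAT with adjuvant/Fat1562 (1289) and replicate 2 of Spl/LN with adjuvant/Fat1562 (190). Scaling by library totals moved 3 of 28 mean levels by more than the SD, to 3537 for Fosl2 and 118 for Jund in VAT and 3672 for Junb in Spl/LN, all with adjuvant alone. Deviations of libraries with the same replicate number correlated weakly (r of -0.0395 to 0.0555, 0 of 15 pairs over 0.1). For different numbers r was -0.0576 to 0.0395. Same-number pairs of Spl/LN and VAT within an immunization all had r above 0 (0.0299 to 0.0555), and 8 of 11 libraries correlated best with their own number. Whether the tissues were paired by mouse is not given in the sources used here, and the main fit has no pairing. With the number as a replicate block over all 4 groups the counts were 1803, 1860, 990, 515 and 437, and Jun in Spl/LN was called (-1.25, adjusted p = 0.0170, within 3.10e-12 to 0.257). Such a block also joins mice of different immunizations, so it is not a pairing by mouse. Spl/LN reads of Atf3 (1 in 6 libraries) and Fosb (3 to 19 per library) limit any statement on change there.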
